A study of Mus musculus with 9 samples.

Results

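The annexins are a family of genes for proteins that bind the inner face of cell membranes when calcium rises. The 9 listed here (Anxa1, Anxa2, Anxa3, Anxa4, Anxa5, Anxa6, Anxa7, Anxa8 and Anxa11) were taken by name from the 19938 genes measured, each through the probe set whose mean over the 9 arrays was highest for that symbol. That mean is the only measured value in the choice of probe set, and it does not use the origin of a line. The family was nevertheless proposed with earlier results of these data in view, among them the high Anxa8 level in brain lines, so its test values describe the fit across all genes and are not independent evidence. All 9 were above the background of the arrays, taken as a log2 level of 4.18, the median over probe sets that carry no gene symbol. So were 14307 of the 19938 genes.

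RNA came from 9 cell lines grown out of tumors of 4T1, a murine breast cancer line known to metastasize in its host, with 1 Affymetrix array per line. The primary lines were 3 lines of the name 4T1-T2, grown from primary tumors. The lung lines were 3 lines named 4T1-LM2, from metastases in lung, and the brain lines 3 lines named 4T1-BM2, from metastases in brain, all numbered as the mice of each origin. Each line came from a different mouse, no genetic change or treatment is given for any group, and all were thawed, cultured and extracted side by side. The lines of an origin share a name that the labels do not explain, and lines from a common selected ancestor would count as fewer than 3 independent samples. The values describe cells in culture, and in such bulk RNA fewer expressing cells and less RNA per cell cannot be told apart. Values are log2 intensities, in which 1 unit is a change of 2-fold.

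Each annexin has a conserved core of repeats that docks on negatively charged phospholipids and an amino-terminal part of its own that binds partner proteins, often members of the S100 family of small calcium-binding proteins. Through these contacts annexins take part in vesicle traffic, in sealing torn plasma membrane, in holding proteases at the cell surface and in control of inflammation. In epithelial tumors they are known mostly from studies of invasion and of surface plasmin formation.

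Across the whole series, medians of the arrays lay between 5.06 and 5.19, and the spread around the gene medians (interquartile range) was widest on the array of brain line 3 (0.178), then that of lung line 1 (0.164), with the other 7 between 0.0886 and 0.126. All 7 markers of mammary epithelium were above background, with Krt8 and Krt18 at mean levels of 12.86 and 12.65. Of 32 markers of other cells, 19 were above background, as were 14307 of the 19938 genes measured. Among these markers were the fibroblast genes Pdgfra (7.47), Col1a2 (6.32), Col1a1 (6.26) and Thy1 (5.70), the leukocyte gene Cd14 (6.16) and the lung gene Ager (5.75). All 3 microglial genes were also among them, Tmem119 (4.87), P2ry12 (4.48) and Cx3cr1 (5.21). The other 13, the leukocyte genes Ptprc, Csf1r, Itgam, Adgre1 and Cd79a, the endothelial genes Cdh5, Kdr and Tek, the fibroblast genes Dcn and Lum, the neural genes Aqp4 and Syt1 and the lung gene Scgb1a1 were at or below background. None of the 32 passed the test in any comparison.

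Brain lines exceeded primary lines in 2 of the 9 annexins, Anxa8 by 4.26-fold and Anxa3 by 1.32-fold, and none was lower (limma with 3 lines per origin, called where the p adjusted by Benjamini-Hochberg over the full gene table was under 0.05). In the same comparison 3.13% of all genes passed, made up of 1.56% higher and 1.57% lower, and with 2 of 9 members no share of the family is read against that background. The median log2 change was -0.03 over the 9 annexins and 0.00485 over all genes. In lung against primary lines 0 of 9 passed (0% of all genes), with 1 of 9 at an unadjusted p under 0.05 against 4.74% of all genes. In brain against lung lines 0 of 9 passed (1.98% of all genes, 0.913% higher and 1.07% lower), with 3 of 9 at an unadjusted p under 0.05 against 14.9% of all genes. Over the 3 origins together the F test called 1 of 9, Anxa8 (adjusted p = 0.0105), where 2.36% of all genes passed.

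**Figure D1:**
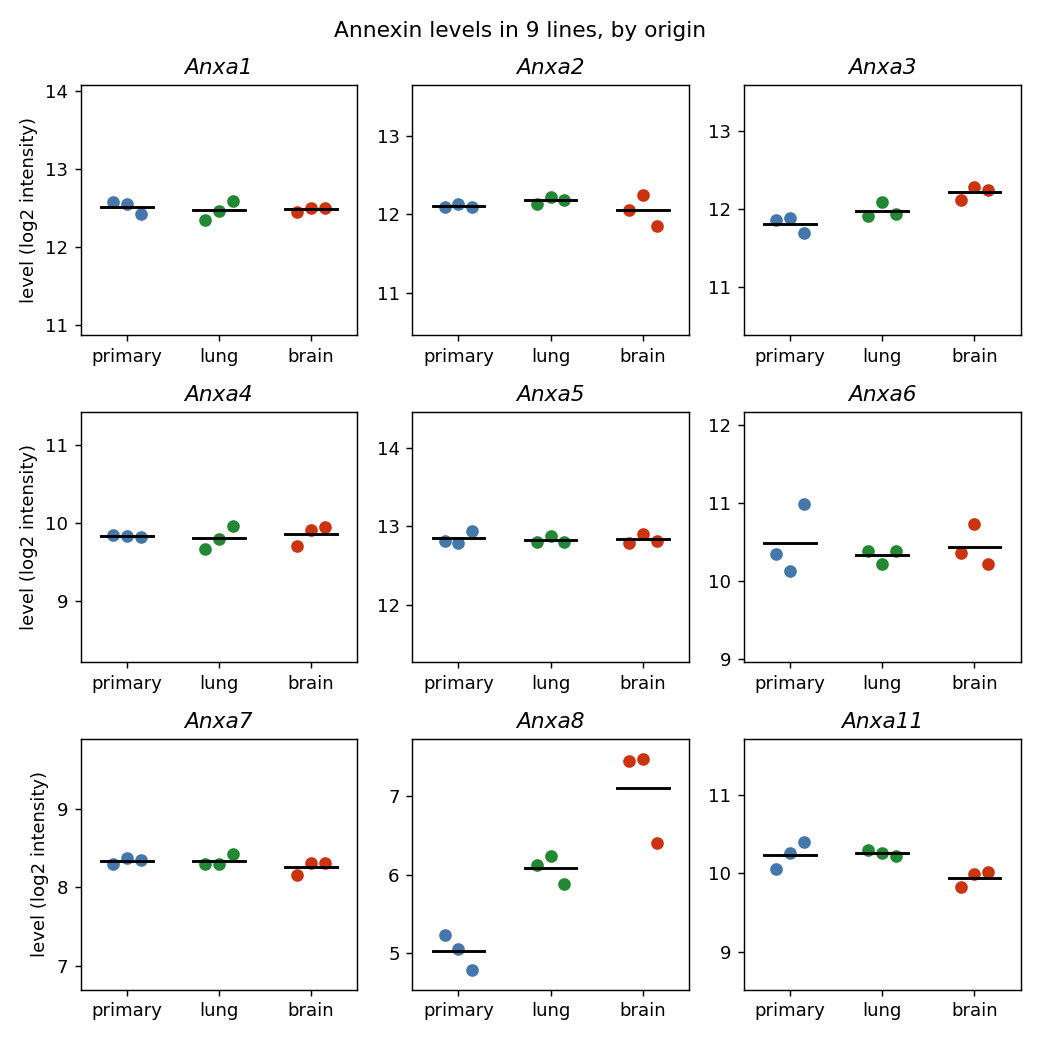
Log2 intensity of each of the 9 annexins (vertical axis) in primary, lung and brain lines, 1 point per line and a bar at the mean of each origin. Every panel spans the same number of log2 units around its own centre, and Anxa8 is the panel in which the origins are farthest apart, with primary lines at 4.78 to 5.23 and brain lines at 6.40 to 7.48.

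Anxa8 encodes an annexin known from stratified epithelia and from basal-like breast cancers, and first described as an inhibitor of blood clotting. Its level was 5.23, 5.05 and 4.78 in primary lines 1, 2 and 3. It was 6.12, 6.23 and 5.88 in the lung lines and 7.45, 7.48 and 6.40 in the brain lines. The origins did not overlap: every lung line was above every primary line, and every brain line above every lung line, although brain line 3 lay only slightly above lung line 2. Such an order, primary below lung below brain with no overlap, was found in 0.492% of all genes, and the reverse order in 0.517%. Means were 5.02 ± 0.22 in primary, 6.08 ± 0.18 in lung and 7.11 ± 0.61 in brain lines (SD, n = 3 each), so the spread was widest among brain lines.

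Between brain and primary lines Anxa8 rose by 2.09 ± 0.26 on the log2 scale (SE, 95% interval 1.51 to 2.67, limma adjusted p = 0.00387). That call held in each of the 9 fits that left out 1 line, with changes from 1.91 to 2.44, the highest being the fit without brain line 3. Between brain and lung lines the change was 1.03 ± 0.26 (interval 0.45 to 1.61), a 2.04-fold difference that did not pass (adjusted p = 0.0831). It passed without brain line 3, at 1.38 ± 0.14 (adjusted p = 0.00715), and with the mouse number as a block, at an SE of 0.16 (adjusted p = 0.0197). It also passed with arrays centred on their medians (0.0436) and with array weights (0.0320). These are the only 4 of the 17 alternatives under which it passed, and of the 9 fits without a line 1 passed. Over all 17 the change ran from 0.85 to 1.38 and the adjusted p from 0.00715 to 0.220. Between lung and primary lines the log2 change was 1.06 ± 0.26 (interval 0.48 to 1.64, 2.09-fold). Its unadjusted p was 0.00220, while over all genes the adjusted p was 0.975, and it ranged from 0.221 to 1 over the alternatives.

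The promoters of the most changed annexin and of 3 others show how differently these genes begin. RefSeq start sites were matched by symbol for 7 of the 9 annexins (assembly GRCm38.p6), not for Anxa3 and Anxa6. Each window runs from 250 bases before to 50 bases after the start, 5′ to 3′ on the gene's strand. Capitals mark matches, on either strand, to the AP-1 motif TGANTCA, the TEAD motif GGAATG, the TATA box TATAAA and the GC box GGGCGG. The first is Anxa8, the member that differed most (chr14:34085729-34086028, plus strand), followed by Anxa11, which lay lower in brain lines without passing (chr14:25841905-25842204, plus strand). Anxa1 (chr19:20390622-20390921, minus strand) and Anxa2 (chr9:69453433-69453732, plus strand) are examples from the members with no detectable difference.
Anxa8: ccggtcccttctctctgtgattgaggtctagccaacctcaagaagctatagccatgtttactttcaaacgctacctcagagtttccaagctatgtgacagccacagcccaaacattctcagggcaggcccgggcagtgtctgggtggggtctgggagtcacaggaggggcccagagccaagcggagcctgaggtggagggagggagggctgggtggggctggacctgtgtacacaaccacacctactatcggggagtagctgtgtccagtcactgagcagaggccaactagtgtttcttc
Anxa11: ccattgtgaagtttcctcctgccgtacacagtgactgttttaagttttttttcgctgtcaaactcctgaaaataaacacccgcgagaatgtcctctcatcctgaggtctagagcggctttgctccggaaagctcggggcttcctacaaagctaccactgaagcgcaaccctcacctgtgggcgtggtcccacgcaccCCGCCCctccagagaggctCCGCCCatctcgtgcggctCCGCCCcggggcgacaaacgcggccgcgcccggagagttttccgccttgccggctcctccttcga
Anxa1: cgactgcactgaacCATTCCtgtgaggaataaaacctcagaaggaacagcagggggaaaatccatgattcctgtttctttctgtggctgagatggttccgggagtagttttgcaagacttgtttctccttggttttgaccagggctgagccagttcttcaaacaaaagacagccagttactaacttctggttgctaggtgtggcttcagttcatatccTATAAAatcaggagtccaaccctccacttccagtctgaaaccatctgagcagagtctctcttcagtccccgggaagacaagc
Anxa2: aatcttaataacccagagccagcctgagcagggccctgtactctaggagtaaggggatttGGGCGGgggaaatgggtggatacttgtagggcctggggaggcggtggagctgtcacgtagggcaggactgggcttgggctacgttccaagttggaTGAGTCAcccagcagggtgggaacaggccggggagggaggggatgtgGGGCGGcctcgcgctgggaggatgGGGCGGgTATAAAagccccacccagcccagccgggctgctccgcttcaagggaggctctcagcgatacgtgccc

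The Anxa8 window held none of these letters, which says nothing about the factors themselves. Nor is this particular to Anxa8: the Anxa5 window and an Anxa4 window, of members without a detectable difference, held none either. The Anxa2 window held 1 AP-1 match at position -95 from the start, 3 GC boxes and a TATA box at -17, and the Anxa1 window held 1 TEAD match at -236 and a TATA box at -32. In the Anxa11 window there were 3 GC boxes. Among 32851 windows of this length in the table, 7.81% held the AP-1 letters, 14.7% the TEAD letters, 13.6% the TATA box and 35.7% the GC box. CpG pairs numbered 5 in the Anxa8 window and 3 in that of Anxa1, against 25 in Anxa11 and 13 in Anxa2, where the median of all windows was 7.

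By gene order in that assembly, the 4 nearest measured coding genes on each side of Anxa8 did not share its difference. Their log2 changes in brain against primary lines ran from -0.04 to 0.07, 0 of 8 passed, and 5 of the 8 had a mean above background. They were chosen by position, outside the rule for naming genes. The coding gene A630023A22Rik overlaps Anxa8 by position and is not analysed here, and whether the Anxa8 probe set also reads its transcripts was not tested.

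The genes whose levels followed Anxa8 most closely over the 9 lines, among 13624 candidates (genes above background without predicted genes, those with Gm or Rik names), were Sh2d1b1 (Pearson r = 0.98), Syngr2 (0.97), Lmf2 (0.97), Got1 (0.96) and Taf15 (0.96). Leaving out any 1 line kept each value at 0.95 or above, while quantile normalization applied again, a check chosen after seeing the data, gave 0.78 for Taf15. Sh2d1b1, which encodes a small adaptor with an SH2 domain, had the largest change of the 5, higher by 1.13 in brain against primary lines (limma adjusted p = 0.00271). Got1, an aspartate aminotransferase, rose by 0.48 (adjusted p = 0.00962) and the synaptogyrin gene Syngr2 by 0.43 (adjusted p = 0.0140). Lmf2, a lipase maturation factor, rose by 0.37 (adjusted p = 0.0441), and Taf15, an RNA-binding protein gene, had a change of 0.12 (adjusted p = 0.368). Syngr2 lost its call without brain line 2 (0.0506) or primary line 2 (0.0604), and Lmf2 without any line other than brain line 3 (0.0625 to 0.130). Against lung lines the Sh2d1b1 change was 0.52 (0.0806), which passed under 5 of 17 alternatives, among them the mouse number as a block (0.0267) and the fits without brain line 3 (0.0496) or primary line 3 (0.0470). All 5 had smaller changes than Anxa8. They were picked for following Anxa8 over all 9 lines. Their values against primary lines and against lung lines therefore restate that choice and are no separate evidence.

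**Figure D2:**
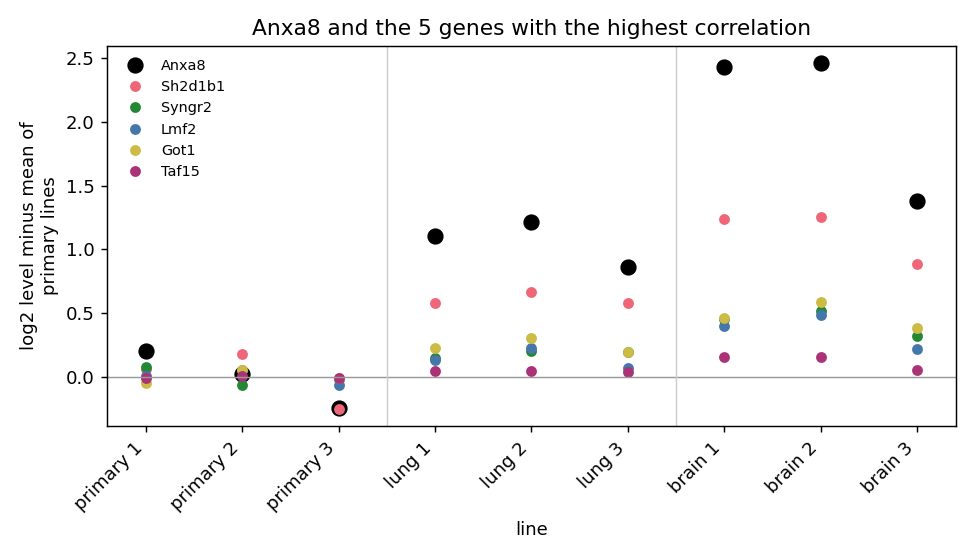
Log2 level of Anxa8 (large black points) and of its 5 closest genes in each of the 9 lines, minus each gene's own mean over the primary lines. The 5 genes span a smaller range than Anxa8 and each has brain line 3 as the lowest brain line, as Anxa8 has (6.40 against 7.45 and 7.48), while the order within lung and primary lines differs between genes. They were picked for following Anxa8 over these 9 lines, so the shared pattern restates that choice.

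Of 7 mammary epithelial markers 3 rose beside Anxa8 in brain against primary lines, where 1.56% of all genes were called higher. The mean level of the list was 8.84 to 9.22 in primary lines, 9.13 to 9.26 in lung lines and 9.58 to 9.79 in brain lines, so lung and primary lines overlapped, unlike for Anxa8. Those that rose were Krt14, a basal keratin (1.62 ± 0.22, SE, limma adjusted p = 0.00568), Krt19, a luminal keratin (1.27 ± 0.25, adjusted p = 0.0262), and Cdh1, encoding E-cadherin (0.90 ± 0.19, adjusted p = 0.0386). Krt8, Krt18, Epcam and Krt5 did not pass, and the Krt5 mean of 4.34 lay near the background of 4.18. The marker calls were not refitted without single lines. Krt14 also rose against lung lines (1.84, adjusted p = 0.00631). Krt19 and Cdh1 had changes of 0.49 and 0.65 against lung lines and did not pass. In lung against primary lines the change was -0.22 for Krt14, 0.77 for Krt19 and 0.25 for Cdh1, beside 1.06 for Anxa8, and none passed. The part of epithelial state in the Anxa8 values was not tested.

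Anxa3, whose protein is abundant in neutrophils and in several epithelia, showed a smaller difference. Its levels were 11.86, 11.88 and 11.69 in primary lines, 11.90, 12.09 and 11.93 in lung lines, and 12.11, 12.28 and 12.24 in brain lines. As for Anxa8 the 3 origins did not overlap and ran from primary through lung to brain, but the whole range was 0.59 against 2.70 for Anxa8. In brain against primary lines Anxa3 rose by 0.40 ± 0.08 (SE, interval 0.21 to 0.59, limma adjusted p = 0.0352). It no longer passed in the fits without brain line 2 (0.106) or 3 (0.0937), without lung line 3 (0.0611), or without primary line 1 (0.0818), 2 (0.0712) or 3 (0.105). It was also lost with every probe set tested (0.0929) and with only the 6 arrays compared (0.0837). The difference was 0.24 ± 0.08 between brain and lung lines (adjusted p = 0.214) and 0.16 ± 0.08 between lung and primary lines (adjusted p = 0.975).

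Anxa11, whose protein has a long amino-terminal part and ties RNA granules to moving lysosomes, lay in the opposite direction without passing. Its levels were 10.06, 10.26 and 10.40 in primary lines, 10.30, 10.26 and 10.23 in lung lines, and 9.83, 9.99 and 10.01 in brain lines. Each brain line was thus below all 6 other lines, while lung and primary lines overlapped. The log2 change was -0.29 ± 0.09 in brain against primary lines (SE, interval -0.50 to -0.09, limma adjusted p = 0.137) and -0.32 ± 0.09 in brain against lung lines (interval -0.52 to -0.11, adjusted p = 0.132). The adjusted p did not fall below 0.0596 in any alternative.

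In brain against primary lines, then, 2 of 9 annexins were higher without overlap (9.36% of all genes) and 1 was lower without overlap (8.47% of all genes), with 17.8% of all genes in either direction. In brain against lung lines the same counts were 2 of 9 and 1 of 9, where 8.27% of all genes were higher and 8.63% lower without overlap, 16.9% in all. The higher ones were Anxa8 and Anxa3 and the lower one Anxa11 in both comparisons, which share the brain lines. In lung against primary lines 3 of 9 were higher without overlap (4.88% of all genes), namely Anxa2, Anxa3 and Anxa8, and 0 of 9 were lower (3.84%, or 8.71% in either direction).

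**Figure D3:**
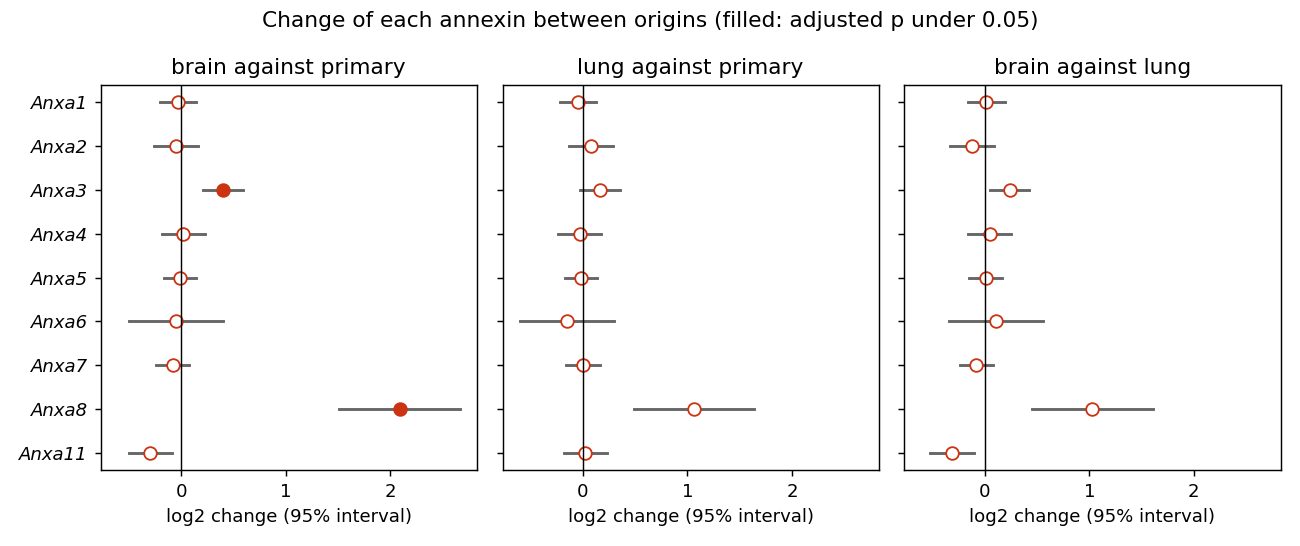
Log2 change of each annexin (points) with its 95% interval from limma (lines) in the 3 comparisons, filled where the adjusted p was under 0.05. Anxa8 at 2.09 and Anxa3 at 0.40 in brain against primary lines are the filled points, and Anxa11 is the one whose interval lies below 0.

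The other 6 annexins had no detectable difference between origins, with an F test adjusted p of at least 0.789. For Anxa1, Anxa2, Anxa4, Anxa5 and Anxa7 the log2 changes in the 3 comparisons ran from -0.13 to 0.08. Their 95% intervals reached from -0.34 to 0.29, so a fall beyond 1.26-fold or a rise beyond 1.22-fold lay outside the intervals. These intervals are not adjusted for the number of genes.

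Anxa1 is induced by glucocorticoids, and its protein restrains inflammation through formyl peptide receptors. Its levels were 12.57, 12.55 and 12.43 in primary lines, 12.35, 12.46 and 12.59 in lung lines, and 12.45, 12.50 and 12.50 in brain lines. The 3 origins overlapped fully, and the brain against primary change was -0.03 ± 0.08 (SE, interval -0.21 to 0.14, limma adjusted p = 0.920).

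Anxa2 encodes the annexin that pairs with S100a10 to hold plasminogen and its activator at the cell surface. Its levels were 12.09, 12.13 and 12.09 in primary lines and 12.14, 12.22 and 12.18 in lung lines, a narrow band. Brain lines were wider apart, at 12.05, 12.25 and 11.85, with brain line 3 the lowest of all 9. The change was -0.05 ± 0.09 in brain against primary lines (interval -0.26 to 0.16, adjusted p = 0.893).

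Anxa5 encodes annexin A5, the phosphatidylserine binder used to stain dying cells. It kept within 0.16 log2 units over all 9 lines, from 12.78 in primary line 2 to 12.94 in primary line 3. Of the genes above background, 96.3% varied more over the 9 lines by their SD, with no matching for level. Only 0.14% of all genes had a brighter probe set than Anxa5. In brain against primary lines the Anxa5 change was -0.01 ± 0.07 (interval -0.17 to 0.14).

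Anxa4, a regulator of secretion and chloride channels in epithelia, lay between 9.67 in lung line 1 and 9.97 in lung line 3. Anxa7, also called synexin for its part in joining secretory granules, lay between 8.16 in brain line 1 and 8.43 in lung line 3. The brain against primary changes were 0.02 ± 0.09 for Anxa4 and -0.08 ± 0.07 for Anxa7, and neither passed.

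Anxa6, whose protein carries a duplicated core and acts in cholesterol traffic and membrane scaffolding, was the least steady of the annexins without a call. Its levels were 10.34, 10.13 and 10.99 in primary lines, 10.39, 10.22 and 10.39 in lung lines, and 10.37, 10.73 and 10.22 in brain lines. Primary line 3 and brain line 2 stood above the other 7 lines, so the spread within an origin exceeded the differences between origins. Only 3.36% of genes above background had a larger within-origin SD than its 0.30, and the interval of its brain against primary change was accordingly wide, from -0.50 to 0.40. A second, dimmer probe set of Anxa6, at a mean level of 5.03, changed by -0.03 in that comparison (adjusted p = 0.964).

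Of the 3 other mouse annexins on the arrays, Anxa9 had levels from 6.02 to 6.52 and a brain against primary change of 0.08 ± 0.12 (SE, limma adjusted p = 0.849). Anxa10 and Anxa13 had mean levels of 3.24 and 3.80, below background, and no change is given for them.

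Over the 9 lines the levels of Anxa3 and Anxa8 ran together (Pearson r = 0.86), and Anxa11 ran against both (-0.70 with Anxa3 and -0.74 with Anxa8). These values carry the differences between origins: for the deviations from the mean of each origin, r was 0.14 for Anxa3 with Anxa8, -0.16 for Anxa3 with Anxa11 and -0.50 for Anxa8 with Anxa11. Among the annexins without a call, Anxa5 and Anxa6 (0.80 for levels and 0.80 for deviations) and Anxa1 and Anxa4 (0.76 and 0.78) kept their likeness within origins. Anxa4 and Anxa7 (0.63 and 0.89) and Anxa2 and Anxa8 (0.08 and 0.79) were more alike within origins than over all lines. The pairs named for likeness within origins were those with the highest deviation correlations among all member pairs. Brain line 3 was the lowest brain line for both Anxa2 (11.85) and Anxa8 (6.40). Primary line 3 and brain line 2 were the highest of their origins for both Anxa5 and Anxa6. The weight of single lines in these correlations was not tested. All are descriptions over 9 lines that share the arrays' normalization.

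The S100 family holds many partners of annexins. Of its 16 genes 1 rose in brain against primary lines (1.56% of all genes) and 15 did not pass, with a median log2 change of -0.01 against 0.00485 over all genes. The one that rose, S100a7a, encodes the mouse psoriasin, a secreted protein of inflamed and squamous epithelium. Its levels were 6.72, 6.92 and 6.57 in primary lines, 7.31, 7.65 and 6.95 in lung lines, and 7.93, 8.38 and 8.42 in brain lines. As with Anxa8, the 3 origins did not overlap and ran from primary through lung to brain. S100a7a was 2.84-fold higher in brain than in primary lines (1.50 ± 0.19, SE, limma adjusted p = 0.00390), a call that held without any 1 line. It was 1.92-fold higher than in lung lines (adjusted p = 0.0346), and this second call did not survive leaving out brain line 2 (0.104) or 3 (0.121), lung line 1 (0.108), 2 (0.0516) or 3 (0.104), or primary line 1 (0.0691) or 2 (0.0557).

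The S100 genes that bind annexins directly did not pass. S100a10, the partner of annexin A2, had means of 13.11 in primary and 13.09 in brain lines, a change of -0.02 ± 0.07 (SE). S100a11, a partner of annexin A1, had 12.54 and 12.73, a change of 0.19 ± 0.06 (adjusted p = 0.147). Its origins did not overlap, with primary lines at 12.51 to 12.55, lung lines at 12.58 to 12.66 and brain lines at 12.68 to 12.79. This order was found in 0.492% of all genes, and S100a11 was chosen for the text after its values were seen. A second, dimmer probe set of S100a11 is not reported here. S100a6, known to bind annexins A2 and A11, had 12.70 and 12.69. S100a4, a metastasis-associated member that also binds annexin A2, had 11.71 and 11.20, a change of -0.50 ± 0.36 (adjusted p = 0.602). Its brain lines, at 11.95, 11.55 and 10.11, lay on both sides of the primary lines, at 11.63, 11.71 and 11.78, with brain line 3 far below the rest.

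In the plasminogen list, where annexin A2 acts, 0 of 8 measured genes passed in any comparison. Plat, encoding the tissue activator of plasminogen, had levels of 7.33, 7.32 and 6.75 in primary lines, 6.38, 6.68 and 7.07 in lung lines and 6.39, 6.44 and 5.81 in brain lines. Brain lines were thus all below primary lines and overlapped with lung lines, and the brain against primary change was -0.92 ± 0.22 (SE, limma adjusted p = 0.0610). It passed under 3 of 17 alternatives, with adjusted p from 0.0352 to 0.190 over all of them. Plau, the urokinase gene, was at 8.78, 8.79 and 8.12 in primary and 8.99, 9.32 and 9.22 in brain lines, a change of 0.61 ± 0.20 (adjusted p = 0.145).

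Of 8 listed formyl peptide receptor and phospholipase genes around annexin A1, 5 were measured and 0 passed in any comparison. Of these 5 only Pla2g4a was well above background, so the count says little of the receptors. Pla2g4a, the cytosolic phospholipase that annexin A1 inhibits, had a change of 0.16 ± 0.11 in brain against primary lines (SE, limma adjusted p = 0.576). The receptor genes Fpr-rs4, Fpr-rs6 and Fpr-rs7 had group means below background, and those of Fpr-rs3 were 4.21 to 4.25, beside the background of 4.18, so no change is given.

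Annexins A7 and A11 bind calcium sensors of the penta-EF-hand family, to which the calpains also belong. Of 7 such genes 1 rose and 1 fell in brain against primary lines (1.56% and 1.57% of all genes). Gca, encoding grancalcin, was 1.80-fold higher (0.85 ± 0.16, SE, limma adjusted p = 0.0250), and Capn1, the catalytic subunit of calpain-1, was lower by a log2 change of -0.41 ± 0.09 (adjusted p = 0.0441). Against lung lines the Capn1 change was -0.55 (adjusted p = 0.0211). The Capn1 call against primary lines was lost with arrays centred on their medians (0.103). It was also lost with every probe set tested (0.113) and with only the 6 arrays compared (0.124). The Gca call did not hold without brain line 2 (0.0627) or 3 (0.0784), without lung line 2 (0.0504), or without primary line 1 (0.0685), 2 (0.0565) or 3 (0.0824). Of the 9 fits without a line, the Capn1 call against primary lines held in that without brain line 2 (0.0581 to 0.132 in the others), and that against lung lines did not hold without brain line 3 (0.0620) or lung line 1 (0.0518), 2 (0.0946) or 3 (0.0716). Pdcd6, encoding ALG-2, which binds annexins A7 and A11, and Sri, encoding sorcin, which binds annexin A7, did not pass (changes of -0.17 and 0.15).

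The 17 membrane repair genes include the ferlins and the ESCRT subunits that act beside annexins at torn membrane. Of these 1 rose in brain against primary lines (1.56% of all genes) and 16 did not pass (median 0.04). The one that rose was Cav1, the caveolin-1 gene, at 5.66, 5.85 and 6.05 in primary lines, 5.65, 5.91 and 6.31 in lung lines and 6.74, 7.45 and 6.68 in brain lines. Brain lines were above all 6 others, and the change against primary lines was 1.10 ± 0.22 (SE, limma adjusted p = 0.0289). It was lost without brain line 2 (0.0613), lung line 2 (0.0571), or primary line 1 (0.105), 2 (0.0932) or 3 (0.0572). Against lung lines the change was 1.00 (adjusted p = 0.0537), which passed under 6 of 17 alternatives, among them the mouse number as a block (0.0369).

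Copines are another group of proteins that bind phospholipids in response to calcium. Of 8 measured, 1 rose and 1 fell in brain against primary lines (1.56% and 1.57% of all genes). In that comparison Cpne2 was lower by a log2 change of -0.70 ± 0.11 (SE, limma adjusted p = 0.0121) and Cpne8 rose by 0.54 ± 0.11 (adjusted p = 0.0348). Cpne2 also fell by 0.63 against lung lines (adjusted p = 0.0231). The Cpne2 call against primary lines did not hold without primary line 2 (0.0544), nor that against lung lines without brain line 2 (0.0634) or lung line 1 (0.0885), 2 (0.0955) or 3 (0.0736). Of the 9 fits without a line, the Cpne8 call held in those without brain line 3 or lung line 1 (0.0516 to 0.118 in the others). Against lung lines the Cpne8 change was 0.48 (0.0693), which passed under 6 of 17 alternatives, among them the mouse number as a block (0.0486) and the fit without brain line 3 (0.0212).

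Scramblases and flippases set how much phosphatidylserine, the ligand of annexin A5, faces outward. Of 11 measured genes 1 rose in brain against primary lines (1.56% of all genes). It was Plscr2, at 7.67, 7.44 and 6.84 in primary lines, 8.11, 8.38 and 8.72 in lung lines and 8.99, 8.59 and 9.22 in brain lines. Both kinds of metastasis line were above all primary lines and overlapped with each other. Plscr2 was 3.07-fold higher in brain than in primary lines (1.62 ± 0.23, SE, limma adjusted p = 0.00791), a call that held without any 1 line, and its change in lung against primary lines was 1.09 ± 0.23 (adjusted p = 0.975). In brain against lung lines Plscr4 was lower by a log2 change of -0.64 ± 0.10 (adjusted p = 0.0177) and the flippase gene Atp11b rose by 0.32 ± 0.07 (adjusted p = 0.0469). The Plscr4 call did not hold without brain line 2 (0.0559) or 3 (0.0544) or lung line 1 (0.0590) or 3 (0.0634), and the Atp11b call in none of the 9 fits without a line (0.0576 to 0.133). No gene of the 7 lists passed in lung against primary lines.

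**Figure D4:**
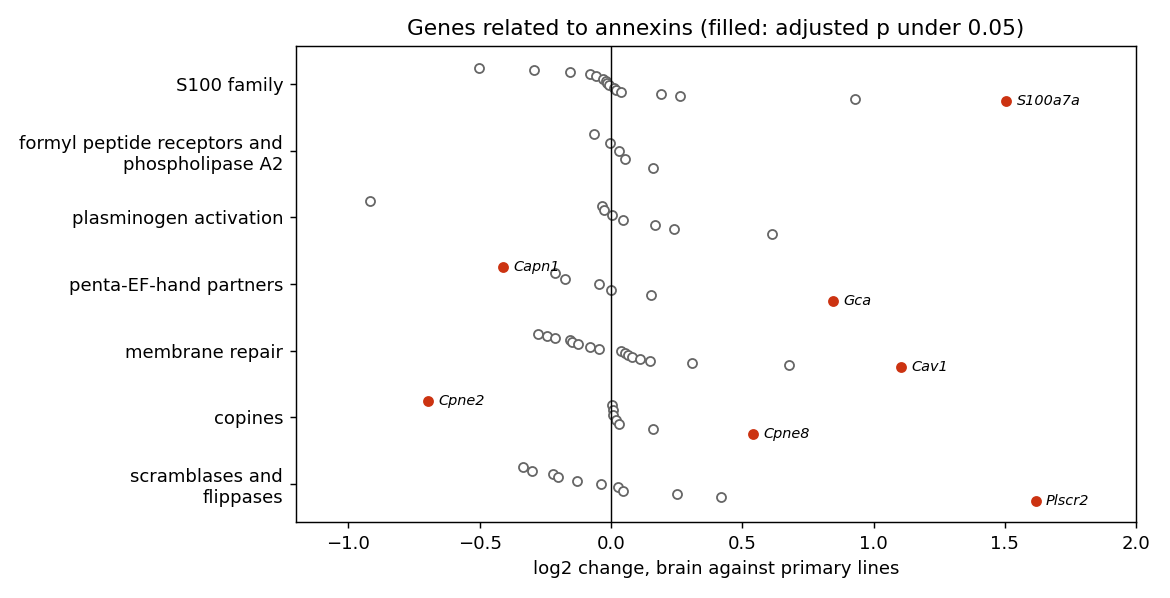
Log2 change in brain against primary lines (horizontal axis) of each measured gene in the 7 lists of genes related to annexins, filled and named where the adjusted p was under 0.05. Most points lie near 0, and S100a7a at 1.50 and Plscr2 at 1.62 lie farthest to the right.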

How the data were processed

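The authors deposited 1 table of log2 intensities for 35557 probe sets on 9 arrays, made with RMA (background correction, quantile normalization and a summary per probe set), per the submitters' processing notes. The log base is read from the range of the values, and no RMA version or genome build is stated. Names come from the annotation of the platform, in which 21789 had 1 gene symbol, 1621 several and 12147 none. Of the first kind, the probe set with the highest mean per symbol was kept, leaving 19938 genes. Precision depends on having 3 arrays per origin.

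Genes were tested with limma 3.58.1 (R 4.3.3, lmFit and eBayes, two-sided) fitted once over the 9 arrays, each origin with its own coefficient (6 residual and 3.72 prior degrees of freedom), with Benjamini-Hochberg adjustment over all genes and a threshold of 0.05. With 3 lines per side, an exact permutation test reaches 0.1 at the lowest and was not used. The script was tested on simulated data. The members, lists, naming rule and alternatives were chosen with earlier results of these data known. All listed annexins were named. For each related list up to 4 called genes were named, or 2 where none was called, and for an annexin passing the F test the 5 genes with the highest correlation. Other list genes in the text were chosen as known annexin partners after their values were seen. The alternatives are those in the closing section, together with quantile normalization applied again and a fit without the dimmest 33.3% of genes. Correlations with Anxa8 under other settings were added after seeing the data. Listed genes without a matching symbol are not analysed here.

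Deviations from origin means correlated between same-numbered brain and lung lines at 0.284, 0.130 and 0.241. With each line from a different mouse, a fit that blocks on mouse number is only an alternative, given where it changes a call. The labels do not say what the number stands for. For primary lines with same-numbered brain or lung lines the correlations ran from -0.0442 to 0.221, the highest above the lowest between brain and lung lines. Lines of different numbers were not compared, so these values cannot decide whether lines are paired.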

Additional observations from a re-analysis of the deposited data

How the results depend on the processing

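The Anxa8 rise in brain against primary lines passed under all 17 alternatives (changes 1.91 to 2.44, adjusted p up to 0.0432 with only the 6 arrays compared). The number of annexins called in brain against primary lines, 2 in the model of all 9 arrays, was 1 with every probe set tested and 1 with only the 6 arrays compared, and 1 to 2 when 1 line was left out. In brain against lung lines it was 0, and 1 with arrays centred on their medians, with array weights and with the replicate block, and 0 to 1 without 1 line. In lung against primary lines it was 0 throughout. By the F test it was 1, and 2 with an intensity trend and robust prior and 0 with every probe set tested. The block on the mouse number changed no other annexin's call. The cause of these shifts was not tested. With every probe set tested, the adjustment ran over 35557 probe sets in place of 19938 genes. Counts over all genes were 624 in brain against primary and 395 in brain against lung lines, ranging from 273 to 556 and from 69 to 417 without 1 line, and from 197 to 839 and from 92 to 566 under the other alternatives. Median centring moved the split in brain against primary lines from 311 higher and 313 lower to 459 and 218, and in brain against lung lines from 182 and 213 to 296 and 146. Of 16 calls of related or closely following genes, 4 held under every alternative. The 3 lines per origin and signals near background limit small differences.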
